A study of Mus musculus with 6 samples.

Results

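The genes described are the immunoproteasome and the peptide loading complex of mouse B16-BL6 melanoma cells: 10 genes chosen by symbol from the 22535 gene rows of one RNA sequencing table. They are the immunoproteasome subunits Psmb8, Psmb9 and Psmb10, the proteasome activator subunits Psme1 and Psme2, the peptide transporter subunits Tap1 and Tap2, the tapasins Tapbp and Tapbpl, and the class I transactivator Nlrc5. All 10 had a row in the table and all 10 passed the filter on low values, a mean of at least 1 CPM (reads of a gene per 1000000 reads counted in genes) over the 6 libraries. B16-BL6 is an invasive subline of the B16 melanoma. Cells with a control guide RNA (genotype sgControl, n = 3 libraries) were compared with cells carrying a guide against Ndufs4, a subunit of respiratory complex I (genotype sgNDUFS4, n = 3 libraries), all in standard culture, with no cytokine treatment named in the labels. The comparison was made to find transcriptional changes behind the immunogenicity of the Ndufs4-targeted cells. The labels do not say whether a genotype is 1 clone or a pool, nor whether the libraries of a group are separate cultures, so p-values reflect library-to-library spread alone, possibly of technical origin, and the guide cannot be told apart from other differences between the lines.

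Peptides shown on class I molecules are mostly made by the proteasome, whose barrel carries proteolytic sites on 3 of its beta subunits. In cells exposed to interferon gamma, and at all times in many leukocytes, these constitutive subunits are replaced by Psmb8, Psmb9 and Psmb10, and the ring-shaped activator made of Psme1 and Psme2 docks on the barrel. The peptides are pumped into the endoplasmic reticulum by the Tap1 and Tap2 heterodimer, and Tapbp bridges this transporter to empty class I molecules while Tapbpl, a tapasin relative, edits peptides away from the complex. Nlrc5 is recruited to the promoters of class I genes and of several genes of this pathway and raises their transcription.

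Library sizes, as reads assigned to genes, ran from 20090607 to 25947374. Ndufs4 itself stood at 54.3, 55.0 and 52.4 CPM with the control guide and at 14.99, 15.98 and 16.8 CPM with its own guide, lower in every library labelled sgNDUFS4. The melanoma identity was visible in the markers Mitf, Sox10, Pmel, Mlana, Dct, Tyrp1 and Tyr. These summed to between 15409 and 15927 CPM in sgControl and between 14508 and 15533 CPM in sgNDUFS4. By the limma test described below, 2 of the 7 rose and 5 fell, beside 31.8% and 20.3% of all genes tested. Under TMM scaling 1 rose and 5 fell, beside 24.8% and 25.9%. After regional centring 2 rose and 3 fell, beside 21.6% and 22.7%. Tyr fell from 32.3 ± 1.57 to 3.10 ± 0.436 CPM (SD, n = 3 each). Because leukocytes hold immunoproteasomes, 20 leukocyte markers were looked at. Their summed level was between 9.61 and 16.9 CPM in sgControl and between 6.40 and 15.6 CPM in sgNDUFS4, and 11 of the 19 with a row, among them Cd3e, Cd8a and Nkg7, had no read in any library. Of the rest, Cd68, Lyz2 and Adgre1 had the highest means over all 6 libraries. Cd68 was at 4.84 ± 1.43 CPM in sgControl and 2.64 ± 1.34 CPM in sgNDUFS4 (SD, n = 3 each). Lyz2 was at 3.49 ± 1.33 and 4.34 ± 1.60 CPM, and Adgre1 at 1.21 ± 0.429 and 1.26 ± 0.970 CPM (SD, n = 3 each). In each of these markers the libraries of the 2 genotypes overlapped. By the limma test described below, Cd68 was nevertheless called lower (log2 fold change -0.81, limma adjusted p = 0.0082), and Lyz2 and Adgre1 did not pass. The Cd68 call was lost without the mean-variance trend. It was also lost without sgControl replicate 1 or 2 and without sgNDUFS4 replicate 2 or 3. In bulk RNA a change in the number of cells that express a gene and a change in the RNA per cell cannot be told apart.

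Of the 10 genes, 7 rose in sgNDUFS4, 0 fell and 3 did not pass the test (limma on log2(CPM + 0.5), Benjamini-Hochberg adjusted over the 11063 genes tested, threshold 0.05). The median log2 fold change of the 10 was 0.56, against 0.06 over all genes tested. The background was high, since 31.8% of all genes tested rose and 20.3% fell, or 3514 and 2241 genes. TMM scaling, which lowered the median over all genes to 0.0028, changed this split to 2744 higher (24.8%) and 2862 lower (25.9%), and 7 of the 10 genes were still called higher. After each gene was centred on its 50 nearest tested neighbours on the chromosome (regional centring), 7 of the 10 were higher and 1 was lower, against 21.6% and 22.7% of the genes with a value there. All sgNDUFS4 libraries lay above all sgControl libraries for 8 of the 10 genes, as for 35.0% of all genes tested. Psmb9 passed the filter through its sgNDUFS4 libraries, as its sgControl mean was under 1 CPM. Of the other 9 genes, 6 rose and 0 fell.

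**Figure D1:**
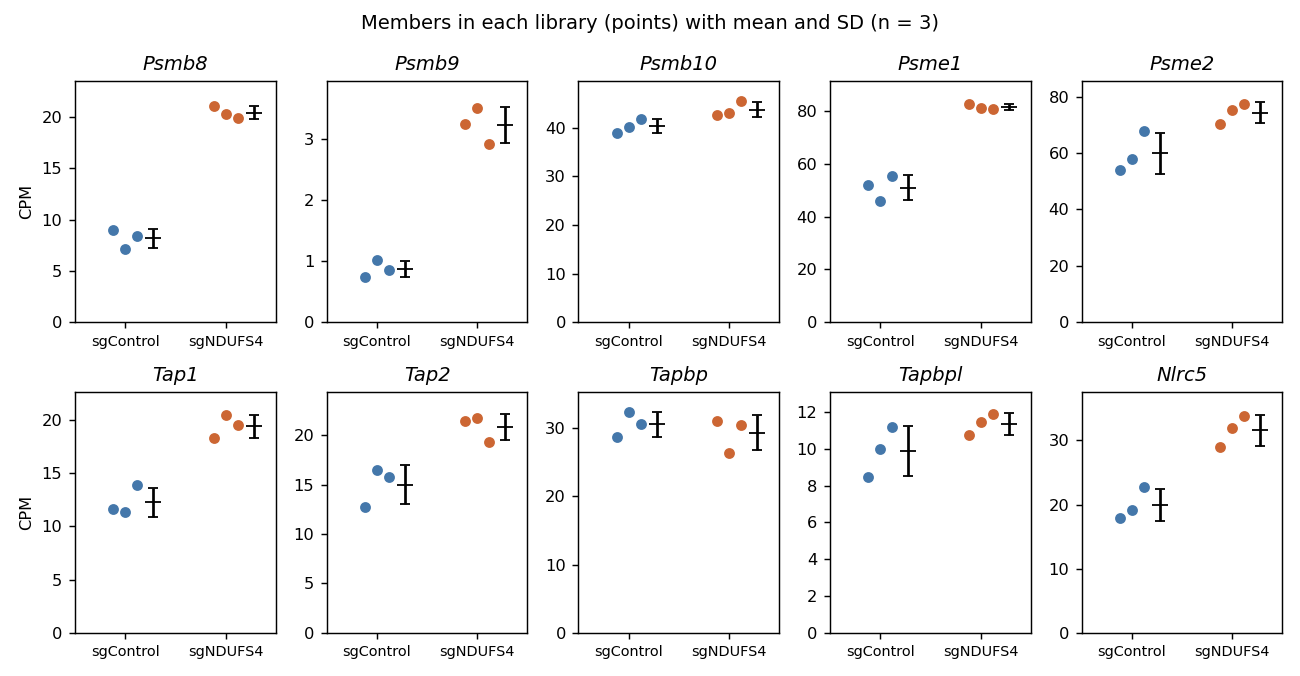
CPM of each of the 10 genes in each library (points, 3 per genotype), with the group mean and SD in black; each panel has its own vertical axis from 0. Psmb8 and Psmb9 show the widest gap relative to their level, and Tapbp and Tapbpl overlap.

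Psmb8, also called LMP7 or beta5i, carries the chymotrypsin-like site of the immunoproteasome (ENSMUSG00000024338.15, chromosome 17, 34197721 to 34201454, plus strand, GRCm38). Control libraries held 8.96, 7.15 and 8.44 CPM of it, and sgNDUFS4 libraries 21.1, 20.3 and 19.9 CPM. The groups were far apart, with every sgNDUFS4 library well above the highest control. The mean rose from 8.18 ± 0.934 to 20.4 ± 0.599 CPM (SD, n = 3 each), a ratio of 2.50. On the log2 scale it rose by 1.27 (SE 0.11, limma adjusted p = 6.7e-10).

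Psmb9, or LMP2 or beta1i, replaces the caspase-like subunit (ENSMUSG00000096727.3, chromosome 17, 34181987 to 34187764, minus strand). It was the least abundant of the 10, at 0.747, 1.01 and 0.853 CPM in sgControl, which corresponds to 15, 24 and 19 reads. In sgNDUFS4 it was at 3.25, 3.51 and 2.93 CPM, or 84, 84 and 76 reads. The mean was 0.871 ± 0.135 CPM in sgControl and 3.23 ± 0.293 CPM in sgNDUFS4 (SD, n = 3 each), a ratio of 3.71. With 0.5 CPM added before the logarithm, which shrinks the change of so low a gene, it rose by 1.45 (SE 0.24, limma adjusted p = 1.6e-05). edgeR on reads recovered from the CPM values gave a log2 fold change of 1.82.

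Psmb10, or MECL-1 or beta2i, replaces the trypsin-like subunit (ENSMUSG00000031897.9, chromosome 8, 105935735 to 105938444, minus strand). Unlike those of its partners, its change did not pass the test. It was at 38.9, 40.2 and 41.9 CPM in sgControl and at 42.6, 43.0 and 45.6 CPM in sgNDUFS4, so that the groups did not overlap but lay close together. The log2 fold change was 0.12 with a 95% interval from -0.02 to 0.25 (limma adjusted p = 0.14), which excludes a change of the size seen for Psmb8 or Psmb9 in these libraries.

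Each inducible subunit was then set against the constitutive subunit it replaces, as a ratio within a library that does not depend on how the libraries were scaled. Psmb8 stood at 3.76%, 2.73% and 3.51% of Psmb5, the constitutive chymotrypsin-like subunit, in sgControl and at 7.99%, 7.83% and 7.94% in sgNDUFS4. The ratio was 2.40-fold higher in sgNDUFS4 and its 3 values there had an SD of 0.0808 percentage points. Psmb9 stood at 0.285%, 0.376% and 0.350% of Psmb6 in sgControl and at 1.06%, 1.14% and 0.969% in sgNDUFS4, 3.15-fold higher, although Psmb6 itself rose by 0.24 on the log2 scale. Psmb10 stood at 10.9%, 10.3% and 11.2% of Psmb7 in sgControl and at 11.2%, 11.5% and 11.997% in sgNDUFS4, 1.07-fold higher. The groups did not overlap in any of the 3 ratios, but for Psmb10/Psmb7 they nearly touched. Its highest sgControl value was 11.16% and its lowest sgNDUFS4 value 11.18%. The exact two-sided permutation p was 0.10 for each, also after adjustment over the 3 ratios, and 0.10 is the smallest p that 3 against 3 libraries allow. Even in sgNDUFS4 the inducible mRNAs remained a minor share: per kilobase of transcript, Psmb8 reached 4.37% of Psmb5, Psmb9 reached 0.623% of Psmb6 and Psmb10 reached 10.2% of Psmb7.

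**Figure D2:**
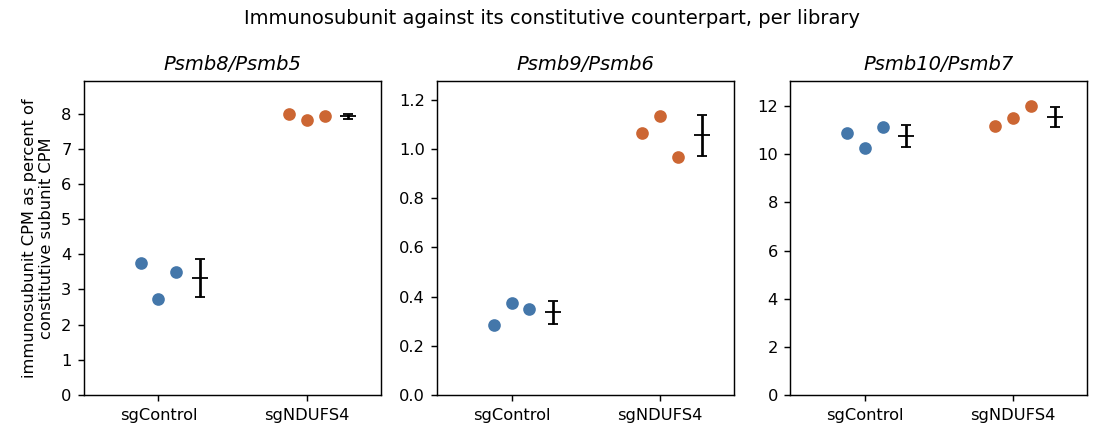
CPM of each inducible subunit as a percent of the CPM of the constitutive subunit it replaces, per library (points, 3 per genotype), with mean and SD in black and axes from 0. Psmb8/Psmb5 moves from between 2.73% and 3.76% to between 7.83% and 7.99%, whereas Psmb10/Psmb7 moves from between 10.3% and 11.2% to between 11.2% and 11.997%.

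The activator subunits rose to different extents. Psme1, the alpha subunit of PA28 (ENSMUSG00000022216.17, chromosome 14, 55578123 to 55581529, plus strand), was at 52.1, 45.8 and 55.2 CPM in sgControl and at 82.8, 81.1 and 80.9 CPM in sgNDUFS4. Its groups were well separated, and it rose by 0.68 on the log2 scale (SE 0.06, limma adjusted p = 8.8e-10), a ratio of means of 1.60. Psme2, the beta subunit (ENSMUSG00000079197.10, chromosome 14, 55587441 to 55591113, minus strand), was at 53.9, 57.8 and 68.0 CPM in sgControl and at 70.3, 75.3 and 77.4 CPM in sgNDUFS4. The highest sgControl library came close to the lowest sgNDUFS4 library. Psme2 rose by 0.32 on the log2 scale (SE 0.07, limma adjusted p = 0.00030). The 2 subunits assemble into 1 ring, and their mRNA ratio Psme1 to Psme2 was 96.6%, 79.3% and 81.2% in sgControl and 118%, 108% and 104% in sgNDUFS4, with no overlap. After regional centring Psme2 was at 0.19 and stayed past the threshold (limma adjusted p = 0.030). Psme3, which forms the nuclear PA28-gamma ring and is not induced by interferon gamma, was at 128 ± 2.37 and 136 ± 6.18 CPM (SD, n = 3 each) and did not pass (log2 fold change 0.09, limma adjusted p = 0.099).

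Both subunits of the peptide transporter rose. Tap1 (ENSMUSG00000037321.17, chromosome 17, 34187553 to 34197225, plus strand) was at 11.6, 11.3 and 13.8 CPM in sgControl and at 18.2, 20.4 and 19.5 CPM in sgNDUFS4. Tap2 (ENSMUSG00000024339.12, chromosome 17, 34203527 to 34216321, plus strand) was at 12.7, 16.5 and 15.7 CPM in sgControl and at 21.4, 21.7 and 19.3 CPM in sgNDUFS4. Neither gene overlapped between groups. They rose by 0.64 (SE 0.11, limma adjusted p = 1.6e-05) and 0.47 (SE 0.11, limma adjusted p = 0.00056) on the log2 scale. The ratio of Tap1 to Tap2 ranged from 68.7% to 91.0% in sgControl and from 85.2% to 101% in sgNDUFS4 and overlapped, so no shift in their balance was seen beyond the spread.

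The tapasins did not pass the test. Tapbp, which holds class I molecules at the transporter (ENSMUSG00000024308.15, chromosome 17, 33915899 to 33929292, plus strand), was at 28.7, 32.4 and 30.6 CPM in sgControl and at 31.1, 26.3 and 30.5 CPM in sgNDUFS4. The groups overlapped, with the lowest value in sgNDUFS4 and the highest in sgControl, and the log2 fold change was -0.06 with a 95% interval from -0.23 to 0.11 (limma adjusted p = 0.55). Its 50 nearest tested neighbours had a mean log2 fold change of 0.31, and centred on them Tapbp was at -0.37 (limma adjusted p = 0.00069), so the call depends on this setting. Tapbpl, or TAPBPR (ENSMUSG00000038213.7, chromosome 6, 125223933 to 125231860, minus strand), was at 8.46, 10.0 and 11.2 CPM in sgControl and at 10.7, 11.5 and 11.9 CPM in sgNDUFS4. Here 1 sgControl library lay above the lowest sgNDUFS4 library, and the log2 fold change was 0.20 with a 95% interval from -0.06 to 0.46 (limma adjusted p = 0.19).

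Nlrc5, the class I transactivator (ENSMUSG00000074151.13, chromosome 8, 94434356 to 94527272, plus strand), was at 17.9, 19.1 and 22.7 CPM in sgControl and at 29.0, 31.9 and 33.8 CPM in sgNDUFS4. The groups did not overlap. It rose by 0.66 on the log2 scale (SE 0.09, limma adjusted p = 1.4e-06), a ratio of means of 1.59. Its 50 nearest tested neighbours had a mean log2 fold change of 0.31, and centred on them Nlrc5 was at 0.34 (limma adjusted p = 0.033). Nlrc5 acts on promoters together with the RFX and NF-Y factors. Of 9 listed factors of these promoters 8 were tested, and 2 rose and 1 fell, a median of 0.02, beside 31.8% and 20.3% of all genes. Under TMM scaling 1 rose and 1 fell, beside 24.8% and 25.9%. Rfx5, the DNA-binding RFX subunit, rose from 7.44 ± 0.609 to 12.4 ± 2.0 CPM (SD, n = 3 each), by 0.69 on the log2 scale (limma adjusted p = 0.00012). Nfyc fell by 0.31 on that scale (limma adjusted p = 0.0016), and Rfxap was at -0.09 (limma adjusted p = 0.50) and at -0.53 after regional centring, where it passed (limma adjusted p = 0.00042). Ciita, the class II counterpart of Nlrc5, had no read in any library.

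Set per kilobase of transcript, so that genes can be compared, the levels spanned a wide range in sgControl. Psmb9 was lowest at 0.645 CPM per kilobase, followed by Nlrc5 at 2.63. Tap1, Tapbpl, Tap2 and Psmb8 came next at 4.15, 4.20, 4.35 and 5.03 CPM per kilobase, and neighbours in that order overlapped between libraries. Tapbp was at 10.5, Psmb10 at 30.8, Psme1 at 45.9 and Psme2 at 62.2 CPM per kilobase, each separated from the one before it. In sgNDUFS4 the order differed in the middle. Psmb8, at 12.5 CPM per kilobase, stood above Tapbp at 10.1 without overlap. Tapbpl, at 4.83, came below Tap2 and Tap1 at 6.05 and 6.56 CPM per kilobase, which overlapped each other. Psme1 reached 73.3 CPM per kilobase, against 77.3 for Psme2, and the 2 overlapped where they had not in sgControl. The lengths are those of the longest principal transcript in GENCODE M21.

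Psmb9, Tap1, Psmb8 and Tap2 lie side by side in the class II region of the major histocompatibility complex on chromosome 17. Within 100 kb of Psmb9 the table held 13 genes, of which 8 were tested, 7 rose and 0 fell, beside 31.8% and 20.3% of all genes. The 7 include these 4 genes, already counted above. Over chromosome 17, 200 of 550 tested genes rose and 69 fell, with a median log2 fold change of 0.12. Besides these 4 genes, H2-DMb1, a chain of the class II peptide exchange factor, rose from 3.69 ± 0.925 to 9.27 ± 0.540 CPM (SD, n = 3 each), by 1.24 on the log2 scale (limma adjusted p = 7.6e-07). Its partner H2-DMa was at 1.04 ± 0.281 and 1.68 ± 0.159 CPM (SD, n = 3 each) and did not pass in limma (adjusted p = 0.11), though it passed without the filter on low values (adjusted p = 0.041) and without the mean-variance trend (adjusted p = 0.024). Brd2, a bromodomain regulator of transcription, rose by 0.23 (limma adjusted p = 2.8e-06) and was at 0.02 after regional centring (limma adjusted p = 0.65). The noncoding Gm15821, on the opposite strand of Tap2, rose by 0.52 (limma adjusted p = 0.028), a call kept in 9 of 16 alternatives. It was lost with edgeR and DESeq2 on recovered reads (adjusted p = 0.066 each), with quantile normalization (limma adjusted p = 0.087) and after regional centring (0.41, limma adjusted p = 0.090). It was also lost without sgControl replicate 1, sgNDUFS4 replicate 1 or sgNDUFS4 replicate 2 (limma adjusted p = 0.097, 0.089 and 0.11). The class II genes H2-Ab1, H2-Aa, H2-Oa, H2-Ob and H2-DMb2 of the same window had no read in any library. The reads do not keep the strand, so those from overlapping genes cannot be told apart. Psmb9 and Tap1 share 212 exonic bases, and Gm15821 and Tap2 share 533. The antisense Gm20496, which has no row, shares 498 exonic bases with Psmb8, 14.7% of those of Psmb8, and 165 with Tap2. Tapbp shares 904 with the antisense Gm19412, which has no row either. Smaller overlaps on the other strand were 78 bases of Nlrc5 with 9330175E14Rik and 14 of Psme1 with Emc9. Psmb7, the denominator of the Psmb10 ratio, shares 405 exonic bases with Nek6 on the other strand. Psmb5, the denominator of the Psmb8 ratio, shares 109 with the microRNA gene Mir686 on its own strand, which has no row. Tapbp also shares 149 exonic bases with Zbtb22 on its own strand.

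**Figure D3:**
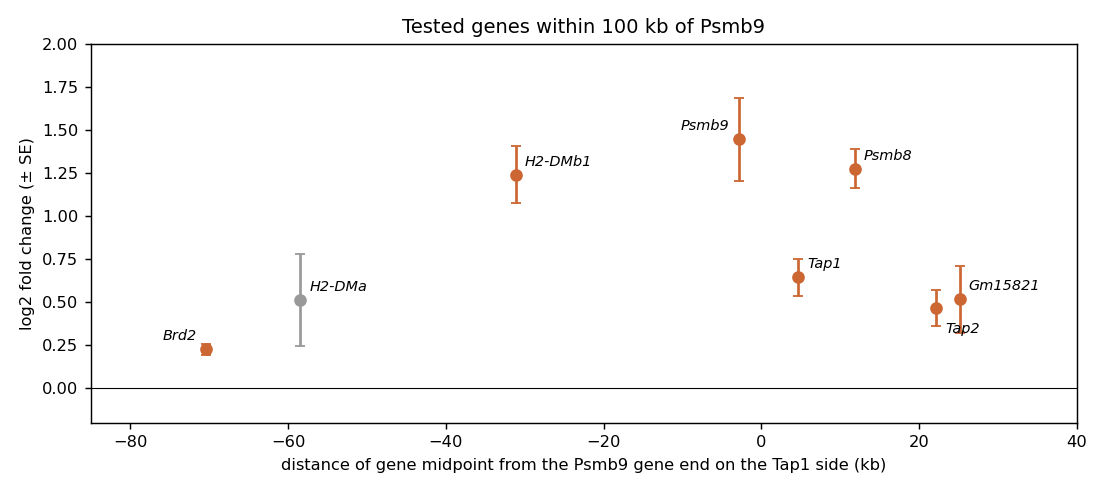
Log2 fold change (points, with SE) of the 8 tested genes within 100 kb of Psmb9 against the distance of each gene's midpoint from the Psmb9 gene end that faces Tap1; orange genes passed the test and the grey gene did not. Psmb9, Psmb8 and H2-DMb1 lie between 1.24 and 1.45, above Tap1 and Tap2 at 0.64 and 0.47 and Brd2 at 0.23.

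In RefSeq, Psmb9 and Tap1 are read away from each other from start sites with 225 bases between them. In GENCODE M21 the 2 genes overlap instead, Psmb9 reaching to 34187764 and Tap1 starting at 34187553. Promoter windows from RefSeq (GRCm38.p6, 250 bases before to 50 after a start site) were matched for 7 of the 10 genes, 8 windows in all. They were searched on both strands for the interferon-stimulated response element core (GAAA, any 2 bases, GAAA), the gamma-activated site TTCNNNGAA, which may overlap the former, the kappaB motif, the GC box GGGCGG and the CCAAT box. Of all 32851 such windows, 3.44% held the first, 8.30% the second, 8.46% kappaB, 35.7% the GC box and 37.4% the CCAAT box. Among the 8 windows the response element core was found in 1, the gamma-activated site in 1, kappaB in 0, the GC box in 6 and the CCAAT box in 3. The Psmb9 and Tap1 windows overlap and hold the same CCAAT and GC sites, and both Psme2 windows hold the same GC sites, so these window counts include some sites more than once and are not set against the shares of all windows. The first matches shown are the pair of sites between the RefSeq start sites of Tap1 and Psmb9, which lie inside the GENCODE Psmb9 gene. The others are the interferon-type matches of Psmb8 and Psme1, which were among the genes that rose. Each stretch is written 5′ to 3′ on the plus strand with the match in capitals.
Tap1-Psmb9 CCAAT site, chr17:34187331-34187360: tttCCAATcagcggctgcgcgcggtgcagg
Tap1-Psmb9 GC site, chr17:34187368-34187397: cagactgaggccCCGCCCcatcatcgcgca
Psmb8 gamma-activated site, chr17:34198088-34198116: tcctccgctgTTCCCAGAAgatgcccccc
Psme1 response element core, chr14:55578493-55578522: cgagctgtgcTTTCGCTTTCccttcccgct
Counted from the RefSeq Tap1 start site, the CCAAT match runs from -222 to -218 and the GC match from -176 to -171, on the Psmb9 side. The Psmb8 match runs from -97 to -89 of its RefSeq start site, which in GENCODE M21 lies in the first exon, in the 5′ UTR, of a longer Psmb8 transcript. The Psme1 match lies on the minus strand from 10 to 19 after its start site. A match describes letters and does not show that a factor binds there.

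Genes of the constitutive proteasome moved in both directions. Of the 14 constitutive subunits of the barrel, 3 rose and 5 fell, beside 31.8% and 20.3% of all genes, with a median log2 fold change of -0.02. Psma3 fell from 221 ± 4.03 to 179 ± 4.95 CPM and Psma1 from 252 ± 5.40 to 213 ± 4.23 CPM (SD, n = 3 each), by 0.30 and 0.24 on the log2 scale. Psma6 and Psmb2 fell by 0.23 each. The catalytic Psmb5 was at 247 ± 13.1 and 258 ± 6.84 CPM and Psmb7 at 374 ± 17.3 and 378 ± 3.73 CPM (SD, n = 3 each), and neither passed, whereas Psmb6 rose by 0.24 (limma adjusted p = 4.9e-06). Psmb5 was at 0.06 (limma adjusted p = 0.18) and passed without sgControl replicate 2 (0.11, limma adjusted p = 0.029). Psmb7 was at 0.02, turned to -0.04 under TMM scaling and passed as lower after regional centring (-0.13, limma adjusted p = 0.018). With the assembly chaperones, 3 of 16 other genes of the barrel and its assembly rose and 7 fell, and under TMM scaling 1 rose and 9 fell, beside 24.8% and 25.9% of all genes. After regional centring 0 rose and 12 fell, beside 21.6% and 22.7%. The thymus subunit Psmb11 and the testis subunit Psma8 had no read in any library.

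**Figure D4:**
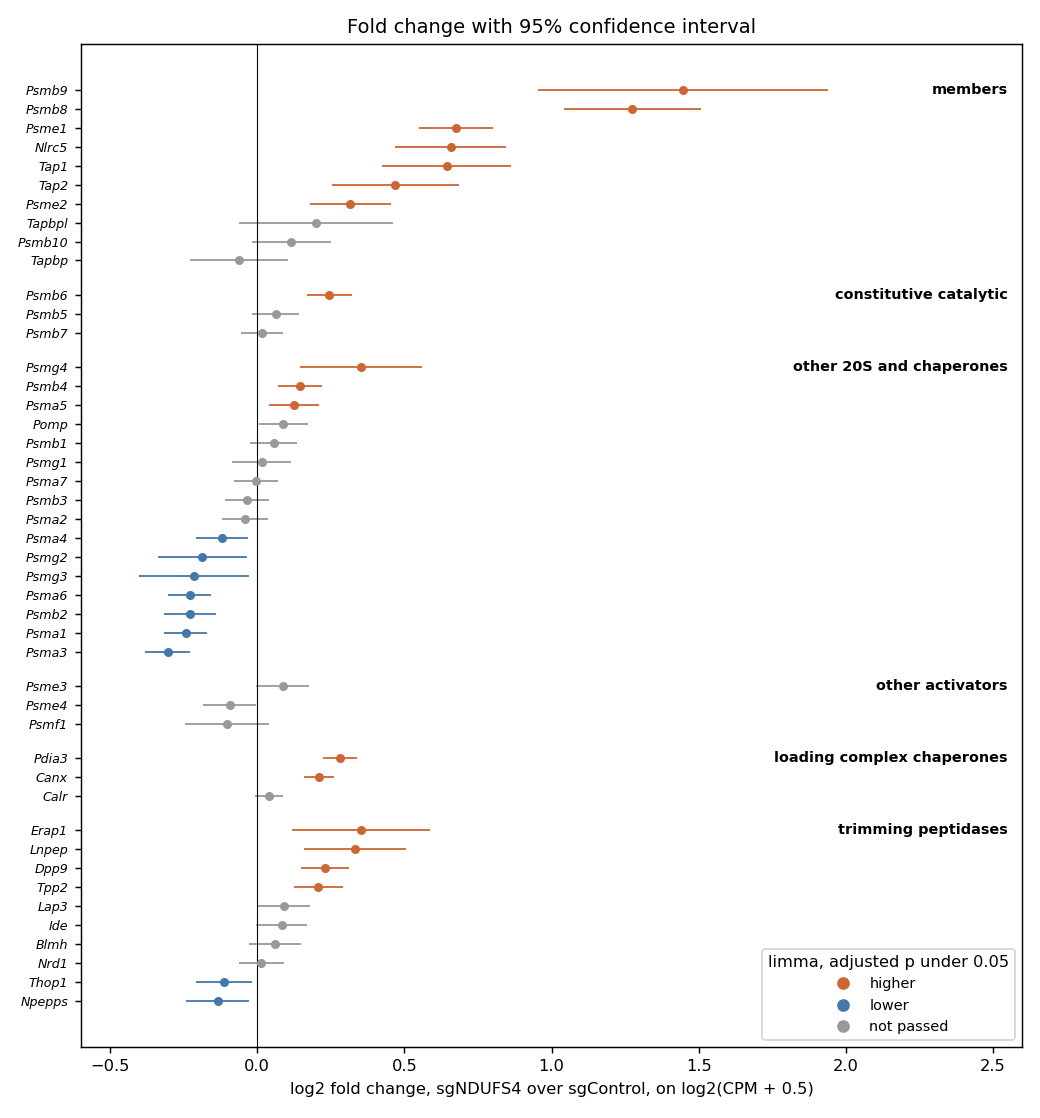
Log2 fold change of sgNDUFS4 over sgControl with its 95% confidence interval for the 10 genes and the tested genes of 5 further lists, coloured by the limma call. Psmb9 and Psmb8, at 1.45 and 1.27, stand to the right of all other genes plotted, whose values run from -0.30 to 0.68.

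A further list held 3 chaperones and partners of class I folding and loading. Pdia3, the disulfide isomerase bound to tapasin, and Canx, the membrane chaperone of new heavy chains, rose by 0.28 and 0.21 on the log2 scale (limma adjusted p = 8.1e-09 and 1.1e-07). After regional centring they were at 0.15 and 0.11. Calr, the soluble chaperone, was at 2293 ± 10.9 and 2357 ± 43.9 CPM (SD, n = 3 each) and did not pass (0.04, limma adjusted p = 0.16). Its value turned to -0.02 under TMM scaling and to -0.17 after regional centring (limma adjusted p = 0.00051), and with quantile normalization it was at 0.16 and passed as higher (limma adjusted p = 2.9e-06). Of 10 tested peptidases that trim or destroy class I peptides, 4 were called higher and 2 lower, beside 31.8% and 20.3% of all genes, and the median was 0.09. After regional centring 1 was higher and 1 lower, beside 21.6% and 22.7%. Erap1, the trimming aminopeptidase of the endoplasmic reticulum, rose by 0.35 (limma adjusted p = 0.012) and was at -0.10 after regional centring (limma adjusted p = 0.46). The call was lost without sgControl replicate 2 and without sgNDUFS4 replicate 2, at adjusted p-values of 0.063 and 0.079 in limma. Lnpep, Dpp9 and Tpp2 rose by 0.33, 0.23 and 0.21, and of these Tpp2 stayed past the threshold after regional centring, at 0.18.

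Of 13 listed genes for the class I molecules loaded by this machinery, 12 had a row and 6 were tested. Of these 6, 4 rose and 0 fell, beside 31.8% and 20.3% of all genes. Under TMM scaling 4 rose and 1 fell, beside 24.8% and 25.9%. H2-K1 and H2-D1 rose by 0.91 and 0.50 and B2m by 0.38 on the log2 scale (limma adjusted p = 4.8e-09, 3.1e-09 and 1.9e-09). H2-M3 rose by 1.52 from a low level, from 1.11 ± 0.417 to 4.03 ± 0.495 CPM (SD, n = 3 each), with 20 to 32 reads in the sgControl libraries. H2-T22 was at 0.14 and did not pass (limma adjusted p = 0.17). H2-Q4 was at 13.1 ± 1.14 and 10.8 ± 1.87 CPM (SD, n = 3 each). It did not pass in limma (-0.28, adjusted p = 0.064), and it passed as lower in 6 of 17 alternatives. These were TMM scaling (-0.34, limma adjusted p = 0.026), quantile normalization (limma adjusted p = 0.026), edgeR (adjusted p = 0.028), DESeq2 (adjusted p = 0.041), the replicate block (limma adjusted p = 0.041) and the fit without sgNDUFS4 replicate 3 (-0.41, limma adjusted p = 0.016). Heavy chains are close paralogs, and their reads may be split between them.

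Interferons are the textbook inducers of these genes, and 5 of them were looked up. Ifng, Ifnb1, Ifna4, Ifnl2 and Ifnl3 had no read in any library, which at this depth allows up to 3 reads or between 0.116 and 0.149 CPM per library. Of 9 tested receptors, kinases and feedback inhibitors of the interferon pathway 4 rose and 0 fell, beside 31.8% and 20.3% of all genes, the median being 0.16. Under TMM scaling 2 rose, beside 24.8%, and after regional centring 1 rose, beside 21.6%. Ptpn2, a phosphatase that restrains the pathway, rose by 0.25 (limma adjusted p = 0.0023) and was at 0.09 after regional centring (limma adjusted p = 0.27). Jak1 rose by 0.16 (limma adjusted p = 0.0044), and kept its call in 13 of 17 alternatives. It was lost under TMM scaling (0.10, limma adjusted p = 0.068), with edgeR (adjusted p = 0.066), with DESeq2 (adjusted p = 0.084) and without the mean-variance trend (limma adjusted p = 0.053). Among 11 tested interferon and NF-kB transcription factors 5 rose and 1 fell, beside 31.8% and 20.3% of all genes. Under TMM scaling 2 rose and 1 fell, and after regional centring 1 and 1, below the shares of all genes in those fits (24.8% and 25.9%, and 21.6% and 22.7%). Irf9 rose from 7.16 ± 1.31 to 10.6 ± 0.577 CPM (SD, n = 3 each), by 0.54 on the log2 scale (limma adjusted p = 0.0021). Irf1, which binds the response element, was at 24.1 ± 1.46 and 27.2 ± 0.630 CPM (SD, n = 3 each) and did not pass (0.17, limma adjusted p = 0.076), though it passed without sgControl replicate 3 (0.22, limma adjusted p = 0.041). Nfkb1 rose by 0.20 and Nfkb2 fell by 0.22, and Rela was at -0.05 (limma adjusted p = 0.40). After regional centring Nfkb1 was at 0.10 and lost its call (limma adjusted p = 0.085).

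Among the sgControl libraries many of the 10 genes had the same highest and lowest library. The third sgControl library was the highest of its group for 6 of the 10 genes and the lowest for 0, and the first was the lowest for 7. These ranks were not counted over all genes, so a trait of the 10 cannot be told apart from a shift of a whole library. Averaged over the 10 genes, the 3 libraries lay -0.09, -0.01 and 0.10 from the sgControl mean on the log2 scale, and the sgNDUFS4 libraries lay at 0.55, 0.58 and 0.58. The coefficient of variation reached 15.5% in sgControl, for Psmb9, and 9.05% in sgNDUFS4, also for Psmb9. The likeness of 9607 other genes at 5 CPM or more on average was measured as the distance between profiles of log2 differences from the sgControl mean. The closest to the mean profile of the 10 over the 6 libraries were Ube2h, Tom1l1, Cdk5rap3, Mettl6 and Uimc1. Their root mean square distances were 0.027, 0.029, 0.030, 0.032 and 0.034 on the log2 scale. Ube2h went from 28.2 to 41.7 CPM and Tom1l1 from 41.6 to 61.3 CPM in the group means.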

How the data were processed

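Polyadenylated RNA was sequenced in paired ends without strand in 3 sgControl and 3 sgNDUFS4 libraries, per the labels' protocols. The submitters' processing notes name HISAT2 and GRCm38, without versions; the tool used for counting, the gene annotation and any filters were not given in the sources used here. Values are the CPM that the authors deposited, each library scaled to its reads in genes; the 6 columns of the 6 libraries were used and the table holds 0 other columns of samples. Of its 22535 rows, 9022 were at 0 in every library. Between 99.98% and 100% of values above 0 were whole multiples of the worth of 1 read, within 0.01 of a read, so read numbers were recovered; edgeR on them called 2723 genes higher and 2860 lower. Floors of 3 reads cover counting error only, and the 95% intervals, from limma, reflect the spread between the libraries of a group.

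The 11063 genes averaging 1 CPM or more were tested with limma 3.58.1 (R 4.3.3, mean-variance trend) on log2(CPM + 0.5), two-sided, without covariates, adjusted by Benjamini-Hochberg over all genes. The script was tested on simulated data. Alternatives were pseudocounts of 0.1 and 1, no filter or 5 CPM, TMM and quantile scaling, no trend, the replicate number as a block, edgeR 4.0.16 and DESeq2 1.42.0 on recovered reads, leaving out each library in turn and centring each gene on its 50 nearest tested neighbours (regional centring). Positions and lengths came from GENCODE M21 by symbol. No set test was run.

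The 10 genes and the other lists were chosen with earlier results of these data known. Named are all 10 genes, the 3 constitutive counterparts, up to 4 genes with the smallest p-value and 1 that did not pass per list, H2-K1, H2-D1, B2m, Irf1 and Rfx5, tested genes within 100 kb of Psmb9, and the 5 genes nearest in profile. Genes without a read are named beside them. Some items that this rule names are not reported here.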

Additional observations from a re-analysis of the deposited data

How the results depend on the processing

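Over 17 alternatives 7 of the 10 genes were called higher, except with the filter at 5 CPM, which left out Psmb9 and gave 6, and 0 were called lower, except 1 (Tapbp, -0.37) after regional centring. The log2 fold change ranged from 1.19 to 1.34 for Psmb8, from 1.18 to 1.82 for Psmb9, from 0.56 to 0.73 for Psme1, from 0.19 to 0.41 for Psme2, from 0.55 to 0.73 for Tap1, from 0.36 to 0.54 for Tap2 and from 0.34 to 0.75 for Nlrc5, each past the threshold wherever it was tested. Tapbp ranged from -0.11 to 0.01 as single libraries were left out. Leaving out single libraries gave log2 differences from 1.12 to 1.36 for Psmb8/Psmb5, from 1.54 to 1.74 for Psmb9/Psmb6 and from 0.07 to 0.13 for Psmb10/Psmb7. Of the 69 other tested genes of the pathway 25 were higher and 11 lower, beside 31.8% and 20.3% of all genes. With edgeR 16 were higher and with DESeq2 16, beside 2723 and 2603 of all 11063 genes. After regional centring 12 were higher and 18 lower, beside 21.6% and 22.7%. Without single libraries between 20 and 25 of the 69 were higher, beside 3024 to 3388 of all genes. Between 7 and 10 were lower, beside 1959 to 2193 of all genes, the fewest, 7, without sgNDUFS4 replicate 2. Over all genes TMM scaling moved the median from 0.061 to 0.0028 and the calls from 3514 higher and 2241 lower to 2744 and 2862.

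Some signs turned, and the cause was not tested. Erap1, called higher at 0.35, lost its call and turned to -0.10 with regional centring. For genes that had not passed, regional centring gave -0.017 for Psmb5, -0.13 for Psmb7 and -0.17 for Calr. TMM, edgeR and DESeq2 gave -0.044, -0.0459 and -0.0462 for Psmb7, and -0.0205, -0.0203 and -0.0207 for Calr. Without single libraries Psmb7 ranged from -0.019 to 0.048.

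Whether replicate numbers pair the samples was not settled. Same-numbered libraries correlated only weakly in their deviations, between 0.012 and 0.097, under the 0.1 set for a pairing. Yet 5 of 6 libraries correlated best with their own number. With the replicate block 3632 genes were higher and 2309 lower, and 7 of the 10 genes were higher. Depth limits Psmb9 most, at 15 to 24 reads in the sgControl libraries.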
